A study of Rattus norvegicus with 12 samples.

Results

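In rat kidney, 9 genes that carry vitamin A, turn it into retinoic acid or bind retinoic acid were followed: Rbp4, Ttr and Stra6 (carriers and uptake), Aldh1a1, Aldh1a2 and Aldh1a3 (synthesis), and Rara, Rarb and Rarg (receptors). The members were chosen by symbol: an array row counted when it was annotated with exactly 1 of these 9 symbols. Each symbol had 1 such row, which gave 9 genes of the 18166 tested. The symbols themselves were selected with earlier results of all comparisons on these arrays in view, so every p-value given for them is a description and no independent support.

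The 12 arrays measured total RNA of kidneys taken after ischemia-reperfusion injury, a stop in the blood flow to the organ followed by its return. They fall into 4 groups of 3: rats given anti-miR-182 and sampled at day 7, rats given placebo and sampled at day 7, rats given anti-miR-182 and sampled at day 2, and rats given placebo and sampled at day 2. Injury is thus shared by all groups, and uninjured kidneys are not analysed here. The labels used here give no strain, sex or age of the rats, and neither the dose nor the timing of the inhibitor. The description of every sample also speaks of a zero-hour biopsy, which does not match the days in the titles, and the groups here follow the titles. Each array title carries a different animal code, so n counts animals, and the number of arrays limits the precision.

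Vitamin A circulates as retinol bound to Rbp4, a small protein made mainly in the liver, and transthyretin (Ttr) holds this complex in the blood. Retinol enters cells, in some tissues through the membrane receptor Stra6, and is oxidised first to retinal and then, by the Aldh1a enzymes, to retinoic acid. Retinoic acid binds the nuclear receptors Rara, Rarb and Rarg, which sit on DNA together with a retinoid X receptor. In the kidney the proximal tubule takes filtered Rbp4 back up through megalin (Lrp2), and retinoic acid signalling is known for its part in forming the nephron.

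Sequences from RefSeq (build GRCr8) show the agent's target and the DNA element through which retinoic acid receptors act. The first is mature rno-miR-182, the microRNA that the inhibitor was directed at, which lies at chr4:59752249-59752273 on the minus strand, with the seed (bases 2 to 8) in capitals. The other sequences are promoter windows of 300 bases, 250 before the start on which RefSeq's window was built and 50 from it. They are Rarb (chr15:11336142-11336441, plus strand) and Cyp26a1, an enzyme that breaks down retinoic acid (chr1:244883572-244883871, plus strand). The capitals in them mark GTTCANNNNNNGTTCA, a direct repeat in which the 5 spacer bases and the first base of the second copy are left free. The Rarb window lies inside the annotated span of the gene and not at its outer end.
rno-miR-182: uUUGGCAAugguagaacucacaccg
Rarb: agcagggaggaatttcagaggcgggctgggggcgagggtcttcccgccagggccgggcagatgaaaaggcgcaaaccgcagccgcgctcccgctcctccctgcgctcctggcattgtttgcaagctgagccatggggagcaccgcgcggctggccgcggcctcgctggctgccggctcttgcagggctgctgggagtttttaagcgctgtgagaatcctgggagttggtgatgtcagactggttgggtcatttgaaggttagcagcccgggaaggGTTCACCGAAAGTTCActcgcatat
Cyp26a1: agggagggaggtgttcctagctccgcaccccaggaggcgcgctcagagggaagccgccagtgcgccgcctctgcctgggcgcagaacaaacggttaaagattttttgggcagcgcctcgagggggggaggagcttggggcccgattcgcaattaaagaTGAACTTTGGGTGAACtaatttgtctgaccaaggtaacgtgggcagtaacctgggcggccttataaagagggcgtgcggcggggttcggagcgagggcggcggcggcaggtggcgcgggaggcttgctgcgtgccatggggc
In Rarb the match covers bases 26 to 41 from the start of its window's 50 bases, on the strand of the gene. In Cyp26a1 it lies on the opposite strand, from base -92 to base -77 relative to the start. Both strands were searched for 8 such repeats, made of GGTCA or GTTCA at a spacing of 2 or 5. The repeat shown is in 140 of 33469 RefSeq promoter windows (0.418%), and the other repeats are in 0.0329% to 0.114%. Of the 9 members 1, Rarb, has any match in its windows, and of the 10 listed responsive genes with a window 1, Cyp26a1, has one. A match is a description of the letters in this window.

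Every member is an annotated gene in RefSeq on GRCr8. The carriers are Rbp4 at chr1:245306349-245313551, Ttr at chr18:12216684-12225972 and Stra6 at chr8:67444757-67464719. The enzymes are Aldh1a1 at chr1:227426939-227579497, Aldh1a2 at chr8:80758641-80837891 and Aldh1a3 at chr1:129392516-129436552. The receptors are Rara at chr10:84379780-84424371, Rarb at chr15:10837252-11482037 and Rarg at chr7:135246427-135268889. The build used for the probes of the array is not given in the labels.

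Values are log2 signals as deposited, so a difference of 1 means a factor of 2 in signal. Over all tested genes and arrays the lower quartile was 5.46, the median 6.42 and the upper quartile 7.63. Array medians over the tested genes lay between 6.30 and 6.38 at day 7 and between 6.42 and 6.57 at day 2. On the second principal component, replicate 3 of anti-miR-182 at day 2 stood apart, at -29.41 against -9.18 to 15.38 on the other arrays. The SD over genes of the deviation from the group mean was 0.212 for this array. It was nearly as large, 0.208, for replicate 1 of the same group, and 0.119 to 0.187 for the rest. The kidney markers Lrp2 (10.97 to 11.76) and Umod (11.19 to 11.95), the uromodulin of the loop of Henle, were high on every array. The row of the miR-182 gene, Mir182, averaged 5.52 ± 0.54 with the inhibitor and 4.34 ± 0.39 with placebo at day 7, and 6.40 ± 0.18 with the inhibitor and 4.67 ± 0.18 with placebo at day 2 (SD, n = 3 each). Whether this row detects the mature microRNA or its precursor is not in the labels, so it does not check the inhibition.

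Among the carriers, Rbp4 moved most. Its log2 signals at day 7 were 5.32, 5.80 and 5.71 in kidneys given anti-miR-182 and 6.61, 5.69 and 5.47 in kidneys given placebo. At day 2 they were 6.80, 7.58 and 8.70 in kidneys given anti-miR-182 and 7.74, 7.15 and 7.11 in kidneys given placebo. Every day 7 kidney lay below every day 2 kidney, while the treatments overlapped within each day. The group means were 5.61 ± 0.26 (anti-miR-182) and 5.93 ± 0.61 (placebo) at day 7, and 7.69 ± 0.96 (anti-miR-182) and 7.33 ± 0.35 (placebo) at day 2 (SD, n = 3). Rbp4 also had the widest spread between animals of the 9 genes, with a pooled SD within groups of 0.607, larger than that of 99.5% of all genes. The median gene had 0.171. The animal with the highest Rbp4 signal, 8.70, is the array that stood apart.

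Ttr, the partner of Rbp4 in blood, lay below the median of all values of the tested genes (6.42) on every array. Its signals at day 7 were 5.67, 5.68 and 5.74 with anti-miR-182 and 5.55, 5.79 and 5.73 with placebo. At day 2 they were 6.19, 5.86 and 5.95 with anti-miR-182 and 6.03, 6.04 and 6.05 with placebo. Every day 7 value was below every day 2 value, and the treatments overlapped on both days. Rbp4 and Ttr are both products of the liver, so the hepatocyte markers were read beside them: Alb (albumin) lay between 4.37 and 4.67 at day 7 and between 4.83 and 5.10 at day 2. All these Alb values are below the lower quartile of all values of the tested genes (5.46). The mean of the 4 measured hepatocyte markers of 5 listed ran from 4.83 to 5.08 at day 7 and from 5.16 to 5.44 at day 2. Of the 4, 2 passed as lower at day 7 in each treatment, beside 24.9% of all genes under anti-miR-182 and 23.7% under placebo. In each treatment 1 of the 4 was higher at day 7 without passing. Whether the difference in these markers has a part in the levels of Rbp4 or Ttr was not tested.

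Stra6, the receptor that lets retinol into cells, had 6.43, 6.90 and 6.23 with anti-miR-182 and 6.25, 6.46 and 6.38 with placebo at day 7. At day 2 it had 6.70, 6.68 and 6.59 with anti-miR-182 and 6.80, 6.74 and 6.72 with placebo. Its day 2 values lay in a narrow band, with every anti-miR-182 kidney below every placebo kidney. Replicate 2 of anti-miR-182 at day 7 had the highest value of the 12 arrays.

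Of the enzymes that make retinoic acid, Aldh1a1 lay above the upper quartile of all values of the tested genes (7.63) on every array. Its signals at day 7 were 10.56, 10.37 and 9.90 with anti-miR-182 and 10.23, 10.21 and 10.26 with placebo. At day 2 they were 10.65, 10.71 and 11.02 with anti-miR-182 and 10.65, 10.86 and 10.68 with placebo. Every day 7 kidney was below every day 2 kidney, and the treatments overlapped on both days.

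Aldh1a2 varied widely between animals of the same group. It had 6.92, 7.43 and 7.31 with anti-miR-182 and 7.42, 8.22 and 7.31 with placebo at day 7. At day 2 it had 7.48, 7.62 and 5.96 with anti-miR-182 and 7.76, 7.42 and 7.02 with placebo. Every pair of groups next to each other in level overlapped. The pooled SD within groups was 0.569, larger than that of 99.3% of all genes, and the lowest value came from the array that stood apart.

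Aldh1a3 was the steadiest of the 9 genes, with a pooled SD of 0.0627, larger than that of 0.870% of all genes. Its signals at day 7 ran from 6.11 to 6.24 with anti-miR-182 and from 6.21 to 6.30 with placebo. At day 2 they ran from 6.35 to 6.46 with anti-miR-182 and from 6.23 to 6.36 with placebo. With anti-miR-182 the days did not overlap, and with placebo they did.

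The receptors spanned 0.53 (Rara), 0.81 (Rarb) and 0.61 (Rarg) log2 units over the 12 arrays, against 3.38 for Rbp4. Rara, the receptor found in most tissues, had 7.33, 7.43 and 7.38 with anti-miR-182 and 7.13, 7.25 and 7.40 with placebo at day 7. At day 2 Rara had 7.38, 7.24 and 6.94 with anti-miR-182 and 7.40, 7.37 and 7.47 with placebo. Its 4 groups overlapped with their neighbours in level, and its lowest value came from the array that stood apart.

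Rarb, the receptor gene that retinoic acid itself can switch on, had 7.30, 7.05 and 7.07 with anti-miR-182 and 7.16, 7.19 and 6.87 with placebo at day 7. At day 2 Rarb had 7.50, 7.49 and 7.68 with anti-miR-182 and 7.42, 7.31 and 7.37 with placebo. Every day 7 kidney was below every day 2 kidney, and at day 2 each anti-miR-182 kidney was above each placebo kidney. Rarg, the receptor best known from skin, had 5.49 to 5.67 with anti-miR-182 and 5.53 to 5.62 with placebo at day 7. At day 2 Rarg had 5.49 to 5.78 with anti-miR-182 and 5.61 to 6.09 with placebo, and all 4 groups overlapped with their neighbours.

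In order of group means, all members but Aldh1a2 and Rara had both day 2 groups above both day 7 groups. Neighbours in that order overlapped with these exceptions: the lower day 2 group and the upper day 7 group of Rbp4, Ttr, Aldh1a1 and Rarb, and the day 2 groups of Stra6 and Rarb. Levels of different genes are not set against each other, since each row has its own probes.

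**Figure D1:**
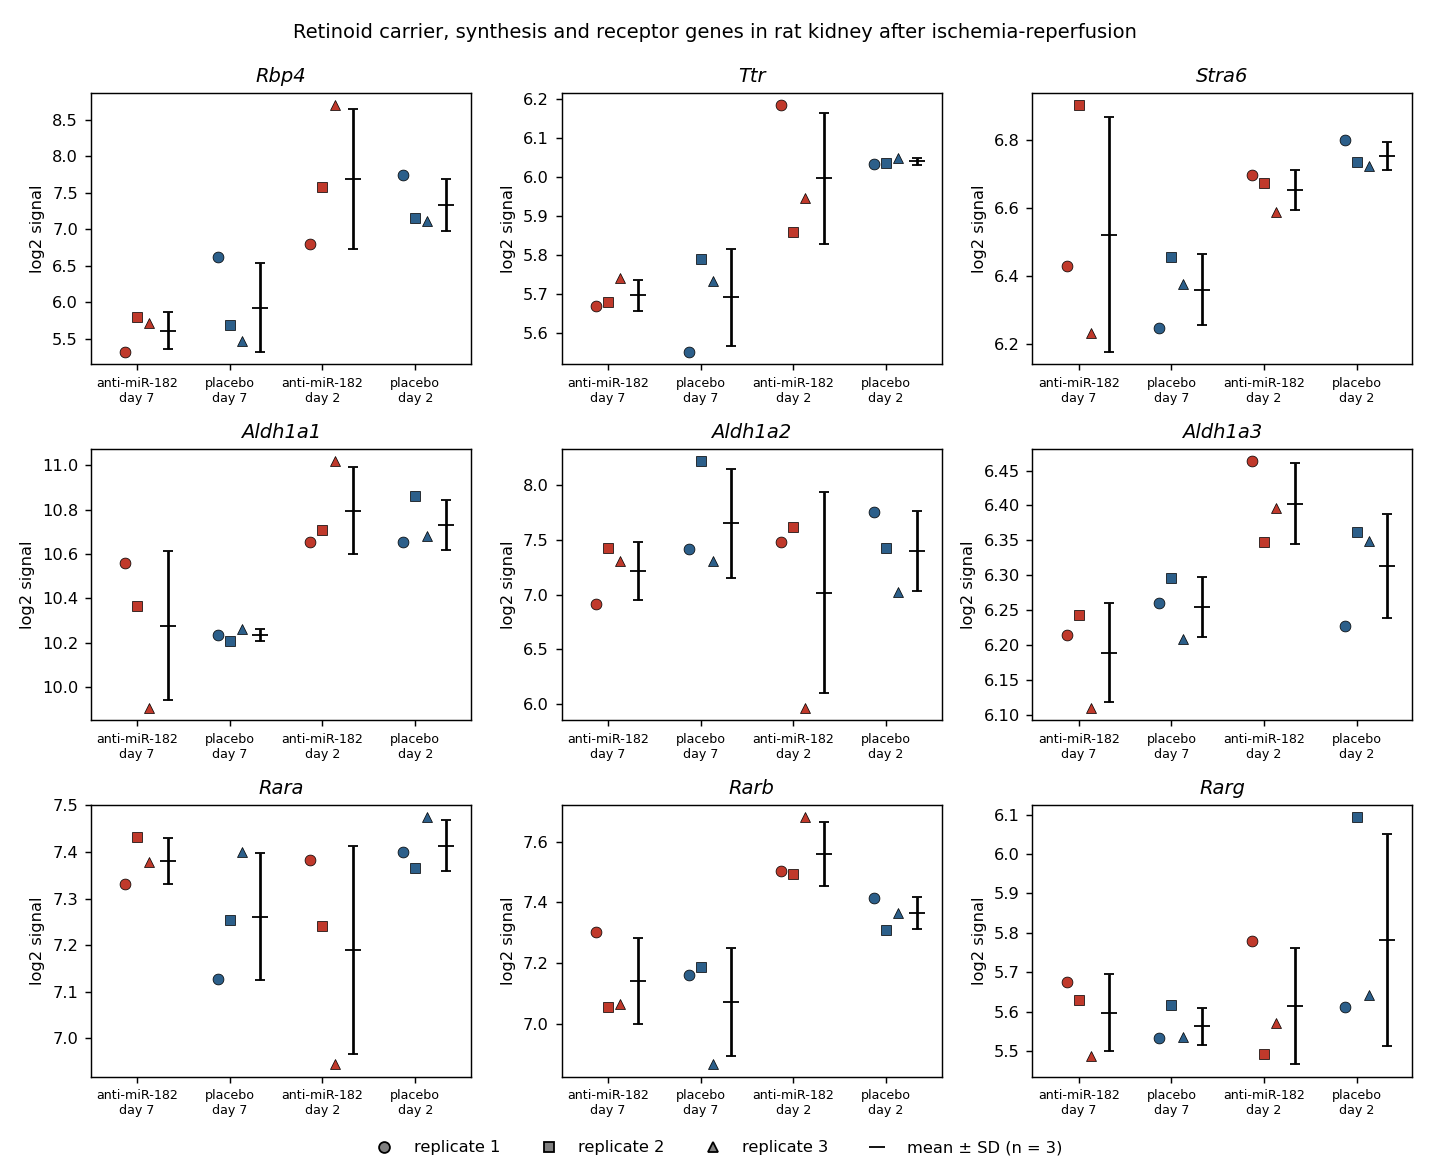
Log2 signal of each of the 9 genes on the 12 arrays (vertical axes, which differ between panels and do not start at 0) by group, with the mean and SD of 3 animals beside the points. Rbp4 lies between 5.32 and 6.61 at day 7 and between 6.80 and 8.70 at day 2, while the treatments overlap within each day.

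The first comparison set anti-miR-182 against placebo at day 7. None of the 9 genes passed. Limma's Benjamini-Hochberg adjusted p over all 18166 genes was 0.999 for every member, 0 of the 9 had an unadjusted p under 0.05, and 0% of all genes passed, with 593 at an unadjusted p under 0.05. The largest differences were -0.44 ± 0.36 (SE) for Aldh1a2 and -0.32 ± 0.38 for Rbp4. Stra6 was 0.16 ± 0.14 higher, but its difference was -0.03 without replicate 2 of anti-miR-182. The other 6 genes differed by -0.07 to 0.12. Groups that did not overlap were seen for 0 of the 9 genes, against 7.26% of all genes.

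At day 2, again, 0 of the 9 genes passed in limma, with adjusted p between 0.764 and 0.958, 0 with an unadjusted p under 0.05, and 0% of all genes called (1201 had an unadjusted p under 0.05). The groups of 2 genes did not overlap, against 12.3% of all genes: Stra6 was lower with anti-miR-182 (6.59 to 6.70) than with placebo (6.72 to 6.80), and Rarb was higher with anti-miR-182 (7.49 to 7.68) than with placebo (7.31 to 7.42). Their differences were -0.10 ± 0.14 and 0.19 ± 0.12, with adjusted p = 0.921 and 0.784 in limma. Rara, at -0.22 ± 0.12, had the smallest unadjusted p, 0.0901. The signs for Rbp4 (0.36 ± 0.38) and Aldh1a2 (-0.38 ± 0.36) rested on replicate 3 of anti-miR-182: without it they were -0.15 for Rbp4 and 0.14 for Aldh1a2.

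Since a p that misses the threshold does not show equal levels, the 95% intervals of the differences are given too. At day 7 the interval ran from -1.14 to 0.51 for Rbp4 and from -1.21 to 0.34 for Aldh1a2, while at day 2 it ran from -0.47 to 1.18 for Rbp4 and from -1.16 to 0.39 for Aldh1a2. A change by a factor of 2 lies inside each of these intervals in 1 direction. For Aldh1a3 the interval was far narrower, from -0.28 to 0.14 at day 7 and from -0.12 to 0.30 at day 2. Aldh1a1 lay between -0.29 and 0.37 at day 7 and between -0.27 and 0.39 at day 2.

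**Figure D2:**
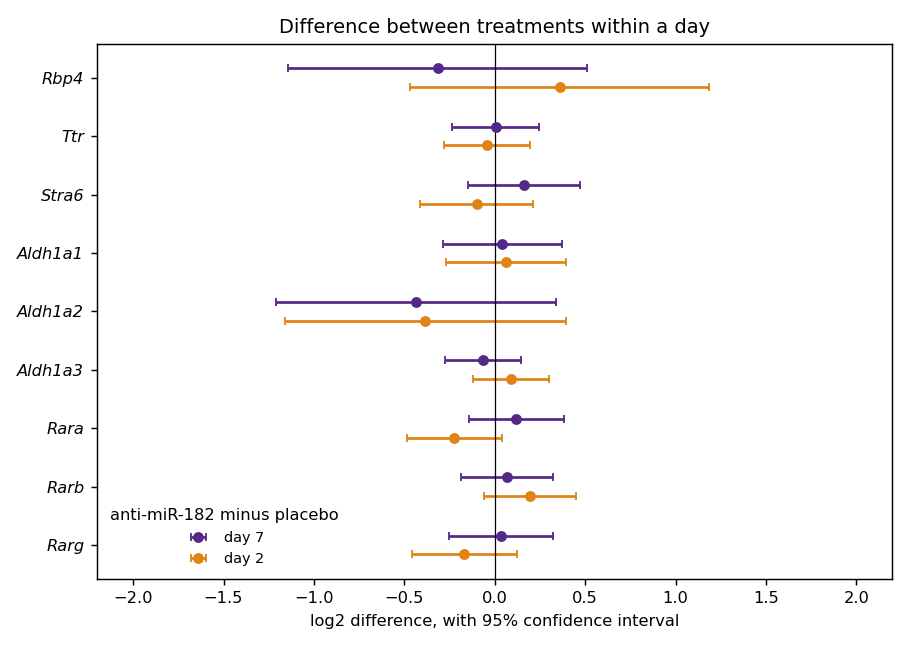
Log2 difference of anti-miR-182 minus placebo for each gene (horizontal axis) with its 95% confidence interval, at day 7 and at day 2, from limma with 3 animals per group. All 18 intervals cross 0, and those of Rbp4 and Aldh1a2 are the widest.

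Averaged over both days, 0 of the 9 genes passed in limma and 0 had an unadjusted p under 0.05. Among all genes 0.00550% passed, which is 1 gene, Mir182, and 957 had an unadjusted p under 0.05. The Mir182 row was higher with the inhibitor, by 1.45 ± 0.17 (adjusted p = 0.0104 in limma). Aldh1a2 differed by -0.41 ± 0.26 (adjusted p = 0.896) and Rarb by 0.13 ± 0.08 (adjusted p = 0.900), and the other members by -0.07 to 0.05. The difference of the treatment effect at day 7 minus that at day 2 passed for 0 of the 9 genes and for 0% of all genes (713 with an unadjusted p under 0.05). It was 0.34 ± 0.17 for Rara, with an unadjusted p of 0.0677 and an adjusted p of 0.9995 in limma, and -0.68 ± 0.54 for Rbp4, with an interval from -1.84 to 0.49.

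The comparison of days asked how the genes stood at day 7 against day 2 within each treatment. Rbp4 was lower at day 7 by 2.08 ± 0.38 on the log2 scale with anti-miR-182 and by 1.41 ± 0.38 with placebo, 4.24-fold and 2.65-fold in signal. Both differences passed in limma, with adjusted p = 0.00228 and 0.0162 in that order. Aldh1a1 was also past the threshold in both, with -0.52 ± 0.15 under anti-miR-182 (adjusted p = 0.0241) and -0.50 ± 0.15 under placebo (0.0283). Rarb passed under anti-miR-182 at -0.42 ± 0.12 (0.0203), against -0.29 ± 0.12 under placebo (0.0817), and Ttr passed under placebo at -0.35 ± 0.11 (0.0326), against -0.30 ± 0.11 under anti-miR-182 (0.0576).

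Lower signals at day 7 were common on these arrays, so these counts are read against all genes. Under anti-miR-182, 3 of the 9 members (Rbp4, Aldh1a1 and Rarb) were called lower, beside 24.9% of all genes, and 0 were called higher, beside 2.68% of all genes. Under placebo 3 of the 9 (Rbp4, Ttr and Aldh1a1) were called lower, beside 23.7% of all genes, and again 0 higher, beside 4.22% of all genes. Day 7 lay below day 2 without overlap in 5 of the 9 members under anti-miR-182 (35.0% of all genes) and in 5 of the 9 under placebo (40.0% of all genes). With single arrays left out the count of members fell to 1 under anti-miR-182 (without replicate 3 of either day) and to 0 under placebo (without replicate 1 of day 2 or replicate 3 of day 7). The median difference was -0.21 for the members and -0.21 for all genes under anti-miR-182, and -0.29 for the members and -0.18 for all genes under placebo.

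Whether the arrays of both days were normalized together is not given in the sources used here. At day 2, 190 rows lack values, and the array medians were lower at day 7. Changes were therefore also read against the median gene. Minus the difference of the median gene, that of Rbp4 came to -1.88 with anti-miR-182 and -1.23 with placebo. With each array centred on its median, Rbp4 was the only member whose calls held in both treatments (-1.90, adjusted p = 0.00945 under anti-miR-182, and -1.26, 0.0475 under placebo, in limma). Quantile normalization of all arrays gave -1.86 (0.0077) and -1.21 (0.0495) in the same order. Under placebo the call of Rbp4 ended without replicate 1 at day 2 (adjusted p = 0.0685), without replicate 2 at day 7 (0.0502) or without replicate 3 at day 7 (0.0625), while under anti-miR-182 it held in all 21 settings run, with differences of -2.53 to -1.58.

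The calls of the other 3 genes ended under both scalings. Aldh1a1 became -0.33 under anti-miR-182 (adjusted p = 0.194 in limma) and -0.35 under placebo (0.154) after centring, Rarb became -0.23 under anti-miR-182 (0.256), and Ttr became -0.20 under placebo (0.223). Without single arrays of the same treatment the calls of Aldh1a1, Ttr and Rarb also came and went. Aldh1a1 under anti-miR-182 missed the threshold without replicate 3 of day 2 (adjusted p = 0.078) or of day 7 (0.106) and with array weights (0.0705), and under placebo without any 1 of the 6 placebo arrays (0.0541 to 0.101). Ttr under placebo missed it without any 1 of 5 placebo arrays (0.055 to 0.121), and Rarb under anti-miR-182 without replicate 3 of day 2 (0.0555) or replicates 2 or 3 of day 7 (0.0622 and 0.0701).

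The remaining members did not pass as deposited. Stra6 differed by -0.13 ± 0.14 under anti-miR-182 and by -0.39 ± 0.14 under placebo (adjusted p = 0.0559 in limma), the second of which passed when the anti-miR-182 arrays of day 7 lacked replicate 2 (0.0172) or 3 (0.0357), through the shared estimate of the spread. It also passed with array weights (0.0286) and with the dimmest 50% of genes left out (0.0467). Rara differed by 0.19 ± 0.12 under anti-miR-182 (adjusted p = 0.255 in limma), and passed as higher at day 7 after centring (0.38, 0.0335) and after quantile normalization (0.39, 0.0317). Under placebo Rara differed by -0.15 ± 0.12, and by 0.08 after quantile normalization. Aldh1a2 was 0.20 ± 0.36 higher under anti-miR-182 and 0.25 ± 0.36 under placebo, but -0.33 under anti-miR-182 once replicate 3 of day 2 was left out and -0.03 under placebo once replicate 2 of day 7 was. Aldh1a3 (-0.21 ± 0.10 and -0.06 ± 0.10) and Rarg (-0.02 ± 0.13 and -0.22 ± 0.13, in the same order) did not pass. Under both scalings the sign turned for Aldh1a3 under placebo and for Stra6 and Rarg under anti-miR-182.

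**Figure D3:**
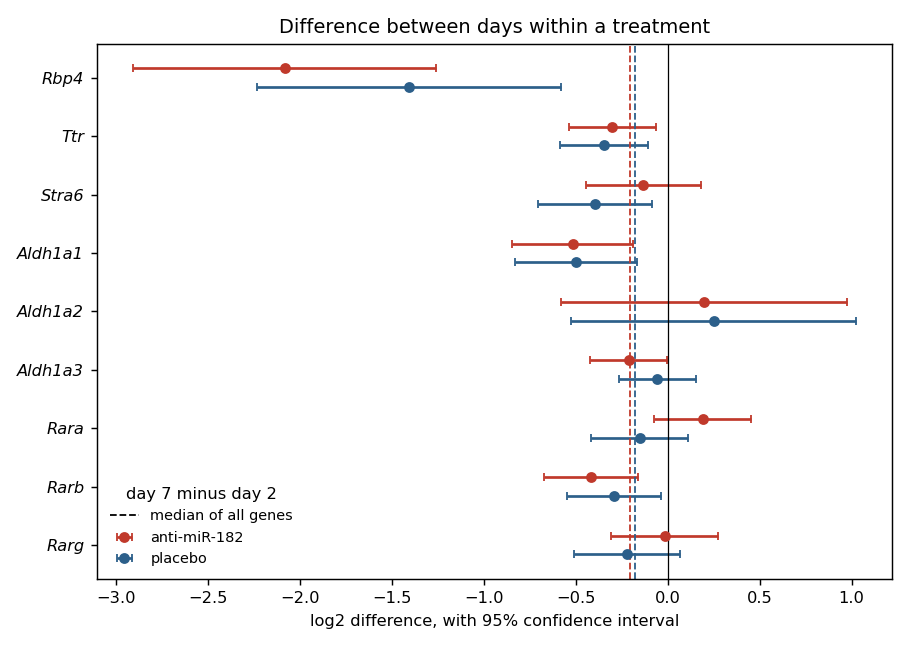
Log2 difference of day 7 minus day 2 for each gene (horizontal axis) with its 95% confidence interval, under anti-miR-182 and under placebo, with dashed lines at the median of all genes (-0.21 and -0.18). Rbp4 lies farthest to the left, at -2.08 and -1.41, and every other interval but that of Rara under anti-miR-182 reaches the dashed line of its treatment.

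Proximal tubule markers were read beside these differences. Their mean log2 signal over 8 of 8 listed genes lay between 9.42 and 10.34 with anti-miR-182 and between 9.63 and 9.78 with placebo at day 7, against 10.22 to 10.74 and 10.50 to 10.68 in the same treatments at day 2. The days overlapped with anti-miR-182 and not with placebo. Of these 8 markers 3 passed as lower at day 7 under anti-miR-182 and 5 under placebo, beside 24.9% and 23.7% of all genes. Calls of lower markers were not particular to the proximal tubule. Of the 4 intercalated cell markers 3 passed as lower under anti-miR-182 and 2 under placebo, and of the 3 measured podocyte markers 2 did in each treatment. Of the 2 thick ascending limb markers 0 passed in either treatment, and of the 4 macrophage markers 1 passed as higher in each. In RNA of a whole kidney, fewer cells of a type and less RNA per cell cannot be told apart. The part of this in the differences of Rbp4 and Aldh1a1 was not tested.

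The genes whose pattern was most like that of a member were sought for the 3 members that spanned at least 1 log2 unit over the 12 arrays. Likeness was the mean absolute difference in log2 signal over the 12 arrays after each gene was centred on its own mean, and a smaller value means more alike. Since the genes were picked on these same arrays, a pattern shared with the member follows from the choice and is no separate support. Closest to Rbp4 were Ugt2b34l1 (0.317), Bhmt (0.345), an enzyme that passes methyl groups from betaine to homocysteine, and Gldc (0.352), the glycine decarboxylase of mitochondria. The median over all genes was 0.807. Bhmt had 6.99, 7.53 and 6.79 with anti-miR-182 and 7.13, 6.85 and 6.36 with placebo at day 7, and 7.80, 8.23 and 8.46 with anti-miR-182 and 8.57, 8.05 and 7.90 with placebo at day 2. Like Rbp4, it was lower in every day 7 kidney than in every day 2 kidney.

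Closest to Aldh1a1 were Tmx4 (0.0737), a thioredoxin-related membrane protein, Lap3 (0.0791), a leucine aminopeptidase, and Shld1 (0.0832), a subunit of the shieldin complex of DNA repair, with a median over all genes of 0.240. Each of these 3 genes was lower in all day 7 kidneys than in all day 2 kidneys, as Aldh1a1 was, which their choice by likeness favours. Among all genes, day 7 lay below day 2 without overlap in 35.0% under anti-miR-182 and in 40.0% under placebo.

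Closest to Aldh1a2 were Col1a2 (0.202), a chain of type I collagen, Bgn (0.209), the matrix proteoglycan biglycan, and Rcn3 (0.210), a calcium-binding protein of the endoplasmic reticulum, with a median over all genes of 0.396. Col1a2 had 7.18, 7.43 and 7.41 with anti-miR-182 and 7.48, 8.14 and 7.46 with placebo at day 7, and 7.41, 7.29 and 6.12 with anti-miR-182 and 7.39, 7.09 and 7.55 with placebo at day 2. Because Col1a2 was chosen for its likeness to Aldh1a2 on these arrays, extremes that both share are no separate support. The highest Aldh1a2 value (8.22) and the highest Col1a2 value came from the same kidney, replicate 2 of placebo at day 7. The lowest Aldh1a2 value (5.96) and the lowest Col1a2 value also shared a kidney, the day 2 array that stood apart. The mean of the 5 fibroblast and pericyte markers, Col1a2 among them, was also highest and lowest in these kidneys (8.46 and 7.29), as was that of the 4 macrophage markers (8.47 and 6.29). The part of these markers in the level of Aldh1a2 was not tested.

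**Figure D4:**
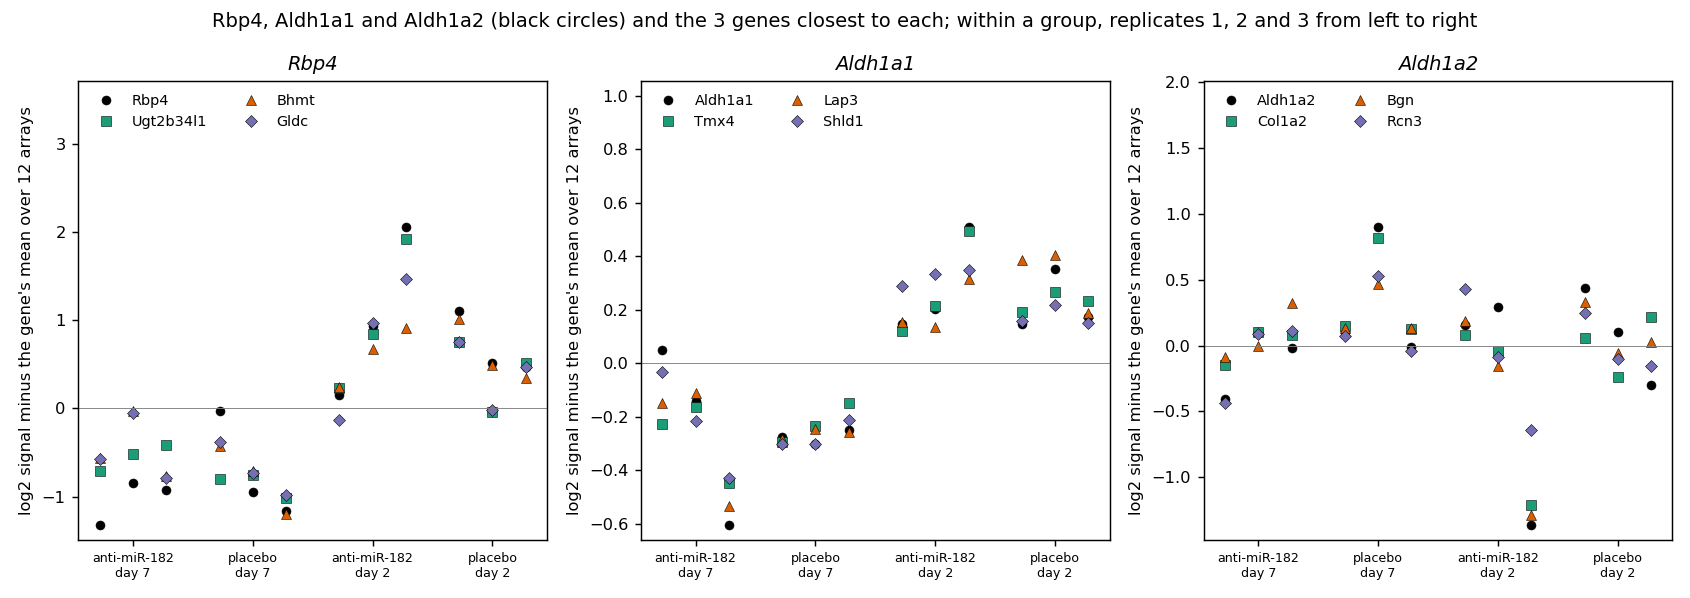
Log2 signal minus each gene's mean over the 12 arrays (vertical axis) for Rbp4, Aldh1a1 and Aldh1a2 and the 3 genes closest to each, by group. For Aldh1a2, replicate 2 of placebo at day 7 is highest and the day 2 array that stood apart is lowest in all 4 genes plotted. The closest genes were chosen on these same arrays.

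Other genes of the pathway came from a list of 53 symbols of retinoid binding, oxidation, storage, breakdown, partner receptors and known responsive genes. Values were tested for 43 of them, and 10 symbols are not analysed here. Between treatments 0 of the 43 passed in limma in any comparison, with 3 at an unadjusted p under 0.05 at day 7, 6 at day 2, 2 for the mean of both days and 5 for the difference between days. The smallest unadjusted p at day 7 was that of Crabp2, which delivers retinoic acid to its receptors (-0.44 ± 0.15, with an unadjusted p of 0.00972 and an adjusted p of 0.999 in limma). At day 2 it was that of Dhrs9, a short-chain dehydrogenase (-0.42 ± 0.14, with an unadjusted p of 0.00914 and an adjusted p of 0.676), and for the mean of both days that of Lrat, which stores retinol as esters (-0.37 ± 0.12, with an unadjusted p of 0.00832 and an adjusted p of 0.888).

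Between days, 2 of the 43 were called higher and 9 lower at day 7 under anti-miR-182, and 5 higher and 9 lower under placebo. Of all genes 2.68% were called higher and 24.9% lower under anti-miR-182, and 4.22% higher and 23.7% lower under placebo, so the counts of lower genes are near the share of all genes. Their median differences were -0.15 under anti-miR-182 and -0.17 under placebo, against -0.21 and -0.18 for all genes in the same order. In both treatments 6 genes were called lower (Lrp2, Adh1c, Adh7, Dhrs4, Dgat1 and Rxrg) and 1 higher, Rarres1. The count of called genes under anti-miR-182 was 11, and 7 without replicate 2 of day 2. Under placebo it was 14, and 9 without any 1 of the day 2 arrays.

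Among the genes that oxidise or reduce retinol and retinal, Adh1c had the lowest difference in both treatments. Adh1c, an alcohol dehydrogenase that oxidises retinol among other alcohols, had 8.20, 9.19 and 7.31 with anti-miR-182 and 7.12, 7.42 and 7.33 with placebo at day 7. At day 2 Adh1c had 8.85, 10.25 and 10.25 with anti-miR-182 and 9.57, 9.73 and 9.87 with placebo. The days did not overlap under placebo and overlapped under anti-miR-182. The difference was -1.55 ± 0.40 under anti-miR-182 (adjusted p = 0.0126 in limma) and -2.43 ± 0.40 under placebo (0.00112), and the first missed the threshold without replicate 2 of day 2 or replicate 3 of day 7, with adjusted p of up to 0.0594. Dhrs4, a reductase that acts on retinal, differed by -0.70 ± 0.15 (0.00515) and -0.86 ± 0.15 (0.00174).

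Of the 15 measured oxidation and reduction genes, 1 was called higher and 5 lower under anti-miR-182, and 0 higher and 5 lower under placebo, beside 2.68% higher and 24.9% lower of all genes under anti-miR-182 and 4.22% higher and 23.7% lower under placebo. Rdh16, a retinol dehydrogenase, passed under anti-miR-182 at -1.47 ± 0.32 (adjusted p = 0.00556 in limma), against -0.89 ± 0.32 under placebo (0.0513), where it passed without replicate 1 of day 7 (-1.26, 0.0114). Rdh10, the main enzyme that makes retinal in mouse embryos, was the 1 gene of this group called higher, at 1.001 ± 0.258 under anti-miR-182 (0.0127), against 0.17 ± 0.26 under placebo (0.647). With anti-miR-182 Rdh10 had 9.37, 9.24 and 9.18 at day 7 and 8.11, 8.52 and 8.15 at day 2. These day 2 values were all below those of placebo at day 2, where the treatments did not overlap in 12.3% of all genes. The placebo value rested on 1 array: at day 7 Rdh10 had 8.25, 9.49 and 9.57 with placebo, against 9.02, 8.86 and 8.91 at day 2, and without replicate 1 of day 7 it passed as higher (0.60, adjusted p = 0.0117 in limma). The difference between the treatments in these changes over time did not pass for Rdh10 (0.83 ± 0.36, adjusted p = 0.999), and was 0.40 without that array. Rdh12 (-0.42 ± 0.12, 0.0214) passed under anti-miR-182, and Rdh13 (-0.35 ± 0.10, 0.0175) and Dhrs9 (-0.65 ± 0.14, 0.00533) passed under placebo.

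Among the storage genes, Lrat rose at day 7 under placebo by 0.66 ± 0.17 (adjusted p = 0.0129 in limma), with 7.37, 7.55 and 6.92 at day 7 and 6.39, 6.69 and 6.77 at day 2. The call of Lrat ended without replicate 1 of placebo at day 2 or replicate 2 at day 7, with adjusted p of up to 0.0599. Under anti-miR-182 its difference was 0.40 ± 0.17 (0.0952). Lpl, a lipase of lipoproteins, was 0.05 ± 0.19 higher under anti-miR-182 (0.863) and 0.92 ± 0.19 higher under placebo (0.00361), and the difference between these 2 changes was -0.87 ± 0.26, with an unadjusted p of 0.00505 and an adjusted p of 0.999. Dgat1, an acyltransferase that can esterify retinol, was lower in both treatments (-0.40 ± 0.14, 0.0495, and -0.66 ± 0.14, 0.00517).

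Of the enzymes that break down retinoic acid, Cyp26a1, whose promoter window is printed above, differed by 0.01 ± 0.13 under anti-miR-182 (adjusted p = 0.946 in limma) and -0.11 ± 0.13 under placebo (0.527). Cyp26b1 passed as lower under anti-miR-182 (-0.48 ± 0.12, 0.00924) and Cyp26c1 as higher under placebo (0.35 ± 0.11, 0.0338). Of the retinoid X receptors, the partners of the Rar proteins, Rxrg was lower in both treatments, by -0.72 ± 0.12 under anti-miR-182 (0.00147) and -0.67 ± 0.12 under placebo (0.00199). Rxra was lower under placebo (-0.55 ± 0.19, 0.0414) and differed by 0.08 ± 0.19 under anti-miR-182 (0.778).

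Of the 10 measured genes known to respond to retinoic acid, 1 was called higher and 1 lower under anti-miR-182, and 3 higher and 0 lower under placebo, where the shares of all genes were 2.68% higher and 24.9% lower and 4.22% higher and 23.7% lower in the same order. The list does not hold Rarb, a member that retinoic acid can also switch on. At day 7 Rarb was called lower under anti-miR-182 (-0.42) and was not called under placebo (-0.29). Rarres1, named for its response to retinoic acid receptor ligands, had 6.76, 6.58 and 6.77 with anti-miR-182 and 6.72, 7.06 and 6.42 with placebo at day 7. At day 2 Rarres1 had 6.06, 5.79 and 6.16 with anti-miR-182 and 6.15, 6.13 and 5.97 with placebo. All day 7 kidneys lay above all day 2 kidneys, with differences of 0.70 ± 0.15 (adjusted p = 0.00562 in limma) and 0.65 ± 0.15 (0.00788). Crabp2 was called higher under placebo (0.42 ± 0.15, adjusted p = 0.0488 in limma), in groups that overlapped between days.

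The whole-array shift between days bears on these calls too. After centring, Adh1c, Dhrs4, Rxrg, Rarres1 and Lrat passed in both treatments, Lrat newly under anti-miR-182 (0.59, adjusted p = 0.0429 in limma), and Rdh16 and Rdh10 under anti-miR-182 and Lpl, Dhrs9, Dgat1, Crabp2 and Cyp26c1 under placebo also did. The calls of Lrp2, Adh7, Rdh12, Rdh13, Cyp26b1 and Rxra, and that of Dgat1 under anti-miR-182, ended.

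Leaving out each of the 12 arrays in turn kept the calls of Dhrs4, Rxrg and Rarres1 in both treatments, those of Adh7, Cyp26b1, Rdh10 and Rdh16 under anti-miR-182, and those of Adh1c, Dgat1, Dhrs9 and Lpl under placebo. Other calls missed the threshold in at least 1 of these fits. For Lrp2 and Dgat1 under anti-miR-182 and Rxra and Crabp2 under placebo, the arrays counted below include some of the other treatment. Those arrays do not enter the difference itself, but do enter the shared estimate of the spread. Under anti-miR-182, Rdh12 missed the threshold without replicate 2 of day 2 or replicates 2 or 3 of day 7 (adjusted p of up to 0.0883 in limma), Lrp2 without any 1 of 6 arrays (up to 0.152) and Dgat1 without any 1 of 9 arrays (up to 0.206). Under placebo, Rdh13 missed it without replicate 2 of day 2 or replicate 3 of day 7 (up to 0.0781), and Cyp26c1 without replicates 2 or 3 of day 2 or replicates 1 or 3 of day 7 (up to 0.124). Also under placebo, Adh7 missed it without any 1 of 4 arrays (up to 0.0801), Lrp2 without any 1 of 5 (up to 0.105), Rxra without any 1 of 6 (up to 0.131) and Crabp2 without any 1 of 10 (up to 0.167).

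**Figure D5:**
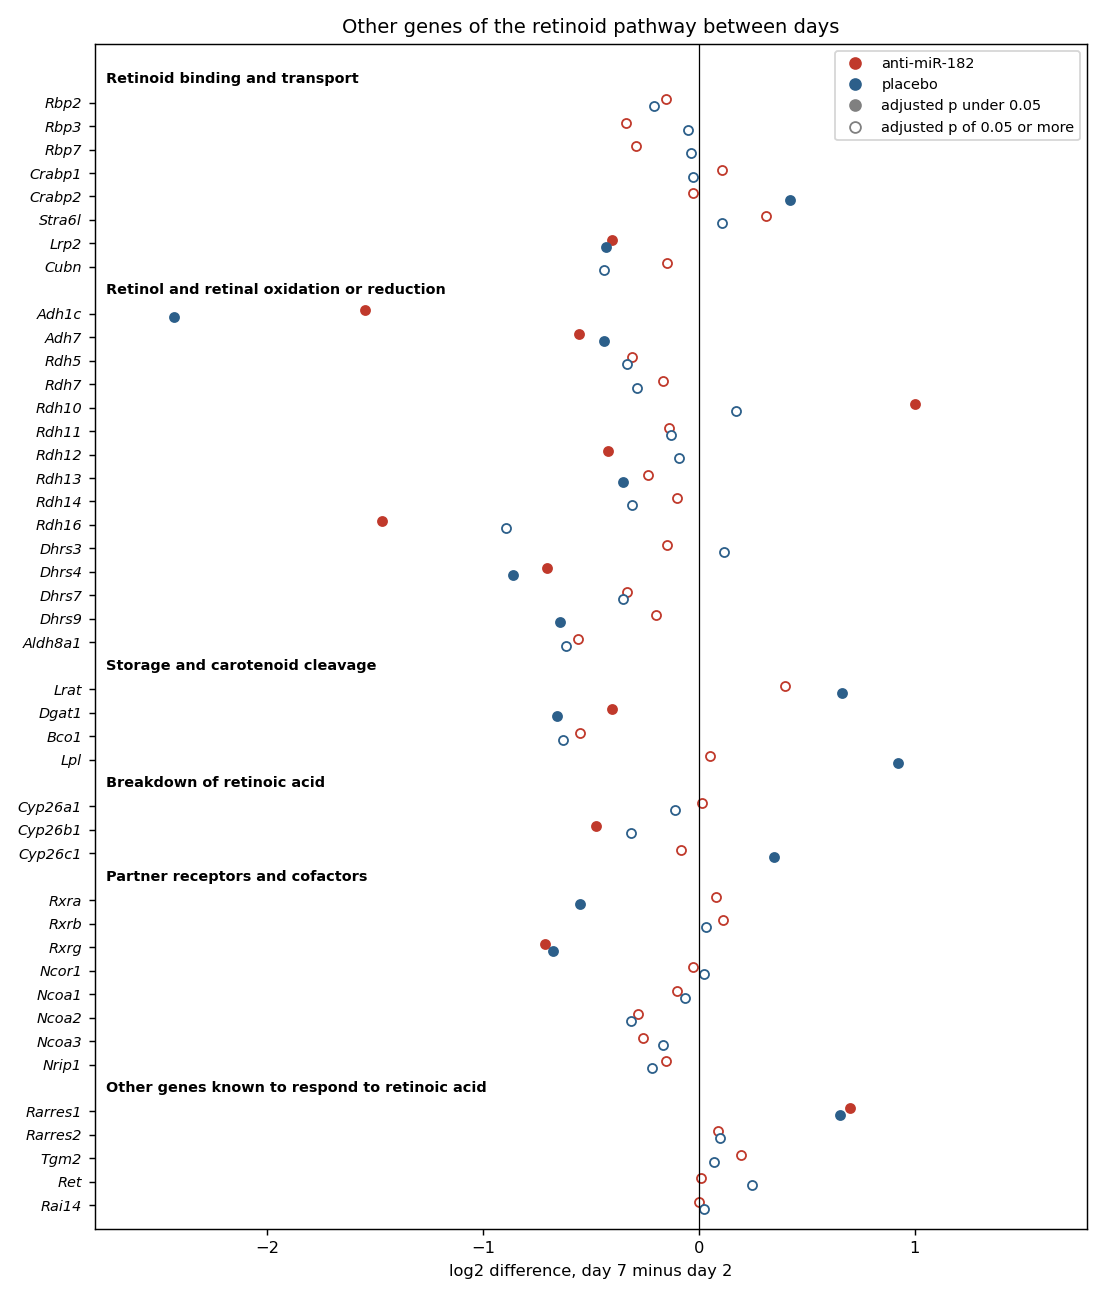
Log2 difference of day 7 minus day 2 (horizontal axis) for the 43 other retinoid genes, grouped by role, under anti-miR-182 and under placebo, with filled points at an adjusted p under 0.05 in limma. Adh1c lies farthest to the left (-1.55 and -2.43), and Rarres1 (0.70 and 0.65) is to the right in both treatments.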

How the data were processed

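Signals were deposited by the authors as log2 values of 12 arrays. The submitters' processing notes name RMA, which corrects background, normalizes arrays and combines probes, with no version given there. Of 36685 rows 18511 have 1 gene symbol, 575 several and 17599 none listed. Rows with 1 symbol that had a value on all arrays gave 18166 genes, with the brightest row kept for the 291 genes that have several. Groups came from the sample titles, which differ from the zero-hour biopsy named in the sample descriptions.

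A limma fit (version 3.58.1, R 4.3.3) of 4 group means with eBayes and 8 residual degrees of freedom gave 6 comparisons. A gene passed at a Benjamini-Hochberg adjusted p under 0.05 over all genes. Steps were tested on simulated data. With 3 against 3 animals an exact permutation test of 1 gene cannot give a p under 0.1. The members and lists were chosen with earlier results of these data known. Named beside the 9 members were listed retinoid genes past the threshold or, where none passed, up to 4 with the smallest unadjusted p, and the 3 genes nearest to each member spanning at least 1 log2 unit. Adh1 was taken as Adh1c through a RefSeq synonym. Alternatives were other scalings, filters, moderation, thresholds, array weights, each day alone and each array left out.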

Additional observations from a re-analysis of the deposited data

How the results depend on the processing

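No paired analysis was possible because the animal codes differ between groups and the replicate numbers only follow the order of the labels. Between treatments 0 of the 9 members and 0 of the 43 other retinoid genes passed in limma in any setting run (members and other genes with an unadjusted p under 0.05 are counted in the report). The number of members past the threshold for day 7 against day 2 was 3 under placebo, and became 1 with quantile normalization, 1 with centring on the array median and 5 at an adjusted p under 0.1, and lay between 0 and 4 with single arrays left out. Under anti-miR-182 it was 3, and became 2 under both scalings (Rbp4 lower and Rara higher) and 4 at an adjusted p under 0.1, and lay between 1 and 3 with single arrays left out, the lowest without replicate 3 of either day. For the other retinoid genes the count was 14 under placebo (9 to 17 with single arrays left out, 9 without any 1 of the placebo arrays of day 2). Under anti-miR-182 it was 11, and 6 with the dimmest 50% of genes left out, where fewer genes are tested, and 7 to 14 with single arrays left out, 7 without replicate 2 of day 2. Where no reason is given, the cause was not tested. No called difference turned its direction in the settings run. The number of arrays limits all intervals. Ttr and Rarg lie below the median of all values of the tested genes on every array, with no detection call used. Among the other retinoid genes called between days, Adh7 (4.22 to 5.13) lay below the lower quartile of these values, 5.46, on every array. Rxrg, Cyp26b1, Cyp26c1, Rdh12 and Dhrs9 lay below the median on every array.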
